A study of Homo sapiens with 12 samples.

Results

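Transcripts of the transforming growth factor beta (TGF-beta) pathway were followed in lung cancer cells with and without PA200, the product of PSME4 and one of the proteins that cap the proteasome core particle. The pathway was represented by 29 genes, taken by symbol from the count tables and sorted into 6 layers by role, and all 29 were found among the 59050 symbols measured. They comprised 4 ligands, 6 latency and ligand-binding proteins, 6 receptors and co-receptors, 3 signalling SMADs, 4 co-repressors and ubiquitin ligases, and 6 genes known to be induced by the pathway. No measured value chose them, although they were proposed with earlier results of these data in view.

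Poly-A RNA came from A549, a lung adenocarcinoma line, and from NCI-H1299 (H1299), a line from a lymph node metastasis of a lung carcinoma. The 4 groups of 3 libraries were A549 KO and H1299 KO, in which CRISPR/Cas9 had been used to knock out PA200, and the A549 WT and H1299 WT cells they were set against, for 12 libraries in all. All cells were grown for 48 h with no ligand or inhibitor named in the labels. Whether a group's libraries came from separate clones, dishes or extractions is not stated, and the p-values therefore reflect only how these libraries spread, which may be technical.

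TGF-beta ligands are secreted in a latent complex with their own propeptide, which latent TGF-beta binding proteins anchor to the matrix, and integrins, proteases and thrombospondin release the active ligand. Active ligand joins a type II receptor to a type I receptor, which phosphorylates SMAD2 and SMAD3, and these enter the nucleus with SMAD4 and change transcription. Among the genes switched on are the pathway's own brakes, and in lung carcinoma cells added TGF-beta is a common trigger of a mesenchymal state.

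Total counts per library were 30645131 to 40983933 in A549 KO, 16599401 to 21112339 in A549 WT, 23241381 to 31258258 in H1299 KO and 21405412 to 33671009 in H1299 WT, so every A549 KO library was deeper than every A549 WT library. PSME4 stood at 11.5% of the A549 WT level in A549 KO and at 21.7% of the H1299 WT level in H1299 KO. CDKN2A, a gene that A549 is known to have lost, had 0 counts in all 6 A549 libraries and 29.4 to 51.8 CPM in H1299. Summed fibroblast, endothelial and leukocyte markers did not exceed 1.22, 0.741 and 0.144 CPM in any library, and the leukocyte genes PTPRC and CD3E had 0 counts throughout. Of the 4 epithelial markers, EPCAM and CDH1 did not exceed 0.0928 and 0.207 CPM in H1299. The other 2, KRT8 and KRT18, were present there at 37.8 to 141.0 and 97.6 to 267.3 CPM. CPM are counts relative to the TMM-scaled library size, scaled within each line's table.

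In H1299 the loss of PA200 went with lower transcripts of 3 of the 6 induced targets, TGFBI, PMEPA1 and SMAD7, while none of the 20 tested members of the layers above them passed the test. TGFBI, a secreted matrix protein named for its induction by TGF-beta, was 25.6% of its wild-type level. PMEPA1, a membrane protein that holds back SMAD2 and SMAD3, was 28.6% of it, and SMAD7, the inhibitory SMAD that turns the receptors over, was 52.0% of it. A gene is said to have risen or fallen only where the Benjamini-Hochberg adjusted p of edgeR's quasi-likelihood test, taken over all genes tested, was under 0.05. In H1299 8.84% of the 20194 genes tested passed it, 4.66% as higher and 4.18% as lower, beside 3 of the 26 members tested, all of them lower. INHBA, LRRC32 and FST had too few counts to be tested there.

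The sequences upstream of the pair that fell most are shown because both carry the short motif that SMAD3 and SMAD4 recognise. They are printed 5′ to 3′ on the gene's strand from RefSeq's promoter table (GRCh38.p14), as the bases of a 250-base window before the start that lie upstream of every exon of the gene in GENCODE 29. Capitals mark GTCT or, on the other strand, AGAC.
TGFBI: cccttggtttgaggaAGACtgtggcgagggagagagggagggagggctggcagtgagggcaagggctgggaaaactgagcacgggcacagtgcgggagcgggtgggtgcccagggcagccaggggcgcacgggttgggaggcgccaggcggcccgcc
PMEPA1: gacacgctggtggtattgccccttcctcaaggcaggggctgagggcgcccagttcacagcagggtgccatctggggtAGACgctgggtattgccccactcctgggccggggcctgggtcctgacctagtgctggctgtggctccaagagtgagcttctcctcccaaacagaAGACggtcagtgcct
The TGFBI stretch is chr5:136028738-136028894 on the plus strand, with 1 match, and the PMEPA1 stretch is chr20:57711537-57711722 on the minus strand, before the most upstream of 4 listed starts, with 2 matches. The window before the most upstream of 3 SMAD7 starts held 4 matches, but it lies wholly inside an exon of SMAD7 in GENCODE 29 and is not printed.

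A match of GTCT or AGAC is a common one: 77.5% of the 35116 windows of all genes held at least 1. The table had entries for 27 members and none for LRRC32 and SKI. Counted by window, 44 of the members' 59 windows (74.6%) held one. Several members have more than 1 window, and counted by gene 22 of the 27 had a match in at least 1 of theirs, TGFB1I1 being the induced target without. The longer motifs were searched on both strands too. The palindrome GTCTAGAC, which would itself hold 2 matches, and the CAGA box AGCCAGACA, which holds 1, were in no member's window and in 0.182% and 0.231% of all windows. The AP-1 motif TGANTCA, which reads alike on both strands, was in a window of FST, SMAD3 and TGIF1 and in 6.57% of all windows.

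TGFBI (chr5:136028895-136063818, GENCODE 29, plus strand) was at 39.2, 24.2 and 50.0 CPM in the H1299 KO libraries, against 176, 147 and 120.3 CPM in the H1299 WT libraries. The highest knockout library was under the lowest wild-type one, and the groups did not overlap. In log2 terms TGFBI fell by 1.96 (SE 0.23, adjusted p = 0.00271). PMEPA1 (chr20:57648392-57711536, minus strand) was at 21.5, 10.4 and 15.7 CPM in H1299 KO, against 54.1, 63.8 and 48.7 CPM in H1299 WT. Again the groups did not overlap, and PMEPA1 fell by 1.80 (SE 0.22, adjusted p = 0.00292). The 223 tested genes within 10 Mb of TGFBI had a median log2 fold change of -0.29 in H1299. In these bulk libraries, fewer cells with a transcript and less transcript per cell cannot be told apart.

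SMAD7 (chr18:48919853-48952052, minus strand) was scarce in H1299, with 103 counts summed over the H1299 KO libraries and 205 over the H1299 WT libraries. Its levels were 1.35, 1.11 and 1.19 CPM in H1299 KO, against 2.00, 3.08 and 1.95 CPM in H1299 WT. The ranges did not overlap, and the second wild-type library stood highest. SMAD7 fell by 0.95 (SE 0.23, adjusted p = 0.0364). The call held without the first H1299 WT library and was lost without any 1 of the other 5, at adjusted p from 0.0530 (without the third H1299 WT library) to 0.122 (without the third H1299 KO library). Without the second H1299 WT library the value was -0.69.

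The other 3 induced targets did not pass the test in H1299. SKIL, a co-repressor induced as a brake, averaged 22.9 ± 1.49 CPM in H1299 KO and 26.3 ± 4.49 CPM in H1299 WT (SD, n = 3 each), a log2 difference of -0.20. BHLHE40, a transcriptional repressor, averaged 14.5 ± 2.25 CPM in H1299 KO and 18.6 ± 4.79 CPM in H1299 WT, and TGFB1I1, the focal adhesion adaptor Hic-5, averaged 5.15 ± 0.905 CPM in H1299 KO and 5.86 ± 0.775 CPM in H1299 WT. All 3 had overlapping ranges, and BHLHE40 passed (-0.56, adjusted p = 0.0485) without the first H1299 WT library. The median log2 fold change of the 6 targets was -0.65 and all 6 values were below 0, beside a median of 0.00 over all genes tested. The summed epithelial markers also differed between these groups, at 135.5 to 204.8 CPM in H1299 KO and 266.4 to 408.5 CPM in H1299 WT, mostly KRT8 and KRT18. Their part in the result was not tested.

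**Figure D1:**
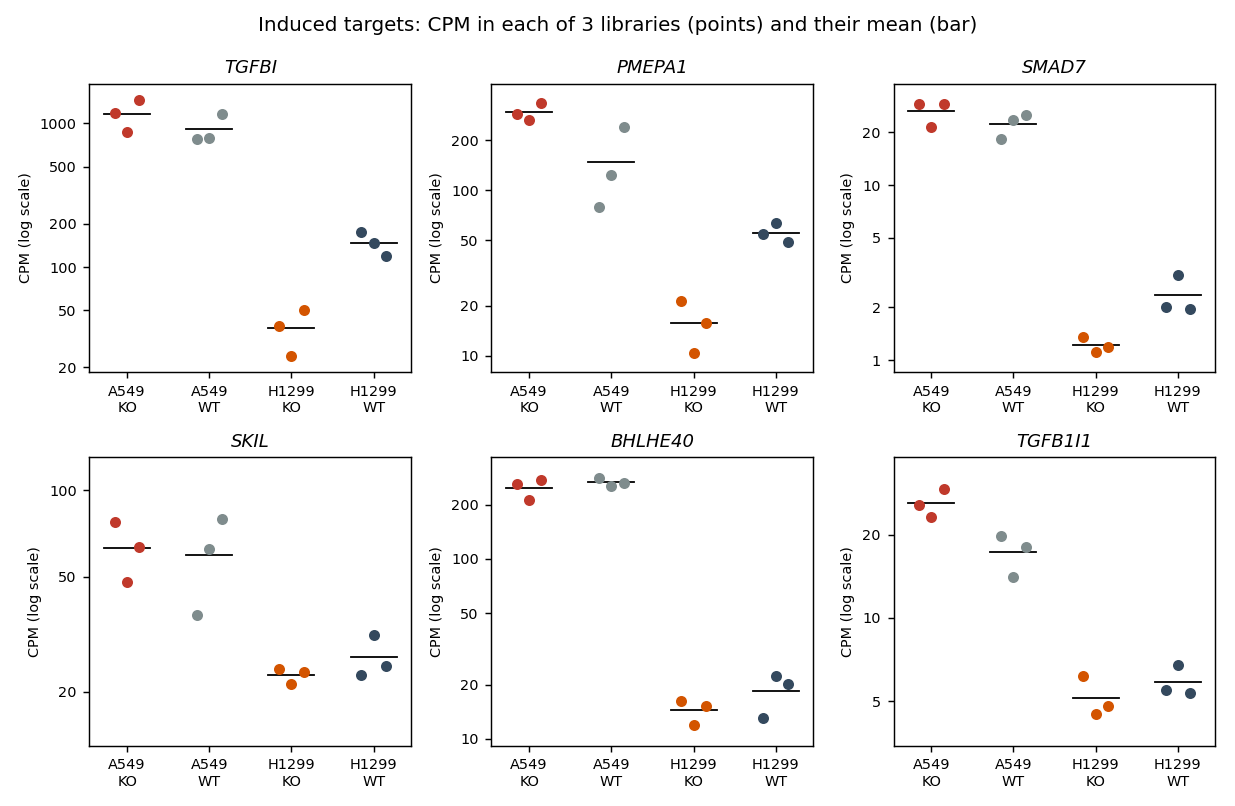
CPM of the 6 induced targets (vertical axis, log scale) in each of the 3 libraries of A549 KO, A549 WT, H1299 KO and H1299 WT (points), with the group mean as a bar. The H1299 KO points of TGFBI, PMEPA1 and SMAD7 lie below all H1299 WT points, while in A549 the KO points of PMEPA1 and TGFB1I1 lie above all WT points.

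Above the targets, no ligand passed the test in H1299. TGFB1, the ligand with the highest level per transcript length in both lines, averaged 109.5 ± 5.57 CPM in H1299 KO and 120.9 ± 10.9 CPM in H1299 WT. TGFB3 had the smallest adjusted p of the ligands, with 12.3, 11.9 and 12.7 CPM in H1299 KO, against 8.61, 9.97 and 9.93 CPM in H1299 WT. Its knockout libraries all lay above the wild-type ones, with a log2 fold change of 0.37 (SE 0.11) that missed the threshold at adjusted p = 0.0664. TGFB2 was scarce and uneven, at 1.96, 1.20 and 1.54 CPM in H1299 KO, against 1.12, 8.79 and 2.60 CPM in H1299 WT. The ranges overlapped, and the value of -1.43 on the log2 scale (SE 0.62) missed the threshold at adjusted p = 0.189. It was -0.20 without the second H1299 WT library, and -1.89 and past the threshold (adjusted p = 0.0407) without the first. INHBA, the activin A subunit, had 0 counts in all 6 H1299 libraries, and 3 counts over a group would have been 0.0357 CPM in H1299 KO and 0.0352 CPM in H1299 WT.

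The latency proteins had a median log2 fold change of -0.23 over 4 tested genes. LTBP3, which escorts the latent ligand out of the cell, had the smallest adjusted p among them, with 23.7, 15.4 and 20.1 CPM in H1299 KO, against 25.6, 31.5 and 25.8 CPM in H1299 WT. The knockout libraries lay below the wild-type ones, at a log2 fold change of -0.48 (SE 0.16, adjusted p = 0.0864). It passed (-0.64, adjusted p = 0.0440) without the first H1299 KO library. LTBP1 averaged 7.0 ± 8.95 CPM in H1299 KO and 2.49 ± 1.61 CPM in H1299 WT, and its log2 value of 1.52 (SE 0.87, adjusted p = 0.313) became -0.41 without the first H1299 KO library, which stood at 17.3 CPM. LTBP2 and LTBP4 differed by -0.28 and -0.17 with overlapping ranges. The activin-binding protein FST and LRRC32, which displays latent TGF-beta on cell surfaces, each had 1 count over the H1299 KO libraries and 1 over the H1299 WT libraries.

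Among receptors, TGFBR2, the type II receptor that binds ligand first, had the smallest adjusted p. It was at 93.5, 67.9 and 94.7 CPM in H1299 KO, against 65.7, 31.6 and 46.2 CPM in H1299 WT. The ranges just failed to meet, and the log2 fold change of 0.84 (SE 0.23) missed the threshold at adjusted p = 0.0554. Without the first H1299 WT library it was 1.13 and passed (adjusted p = 0.0144). TGFBR3, the co-receptor betaglycan, showed the same order of groups, at 102 ± 5.57 CPM in H1299 KO and 86.9 ± 4.80 CPM in H1299 WT (0.24, SE 0.07, adjusted p = 0.0816). The type I receptors TGFBR1 and ACVR1B, the activin receptor ACVR2A and the co-receptor endoglin, ENG, had log2 values between -0.10 and 0.10 and overlapping ranges.

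SMAD3, a receptor-activated SMAD that binds DNA, was at 369, 237 and 314 CPM in H1299 KO, against 416, 506 and 393 CPM in H1299 WT. All knockout libraries lay below all wild-type libraries, and the log2 fold change of -0.52 (SE 0.15) missed the threshold at adjusted p = 0.0685. Without the first H1299 KO library it was -0.67 and passed (adjusted p = 0.0366). SMAD2 and the shared partner SMAD4 differed by 0.07 and -0.01. SMURF2, a ubiquitin ligase that SMAD7 brings to the receptors, was at 133.8, 162.8 and 126.5 CPM in H1299 KO, against 126.5, 95.7 and 111.6 CPM in H1299 WT (0.34, SE 0.12, adjusted p = 0.116). Its ranges met at 126.5 CPM with the lowest knockout library just above the highest wild-type one. The co-repressors SKI and TGIF1 and the ligase SMURF1 had log2 values of 0.20, 0.08 and -0.10.

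Counted over the 20 tested members above the targets, edgeR called 0 in H1299, 8 had an unadjusted p under 0.05, and DESeq2 called 2, SMAD3 and LTBP3, both lower. Of all genes in H1299, 25.1% had an unadjusted p under 0.05 and DESeq2 called 11.6%. The ranges of 10 of the 26 tested members did not overlap, 5 with the knockout above and 5 below, beside 30.6% of all genes tested, 16.3% above and 14.3% below. Of the 5 below, 3 were the targets that fell and the others were SMAD3 and LTBP3. With no low-count filter 9 members were called, TGFBR2, LTBP1, SMURF2, TGFB2, SMAD3 and LTBP3 joining the 3 targets, beside 8.85% of 34784 genes.

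**Figure D2:**
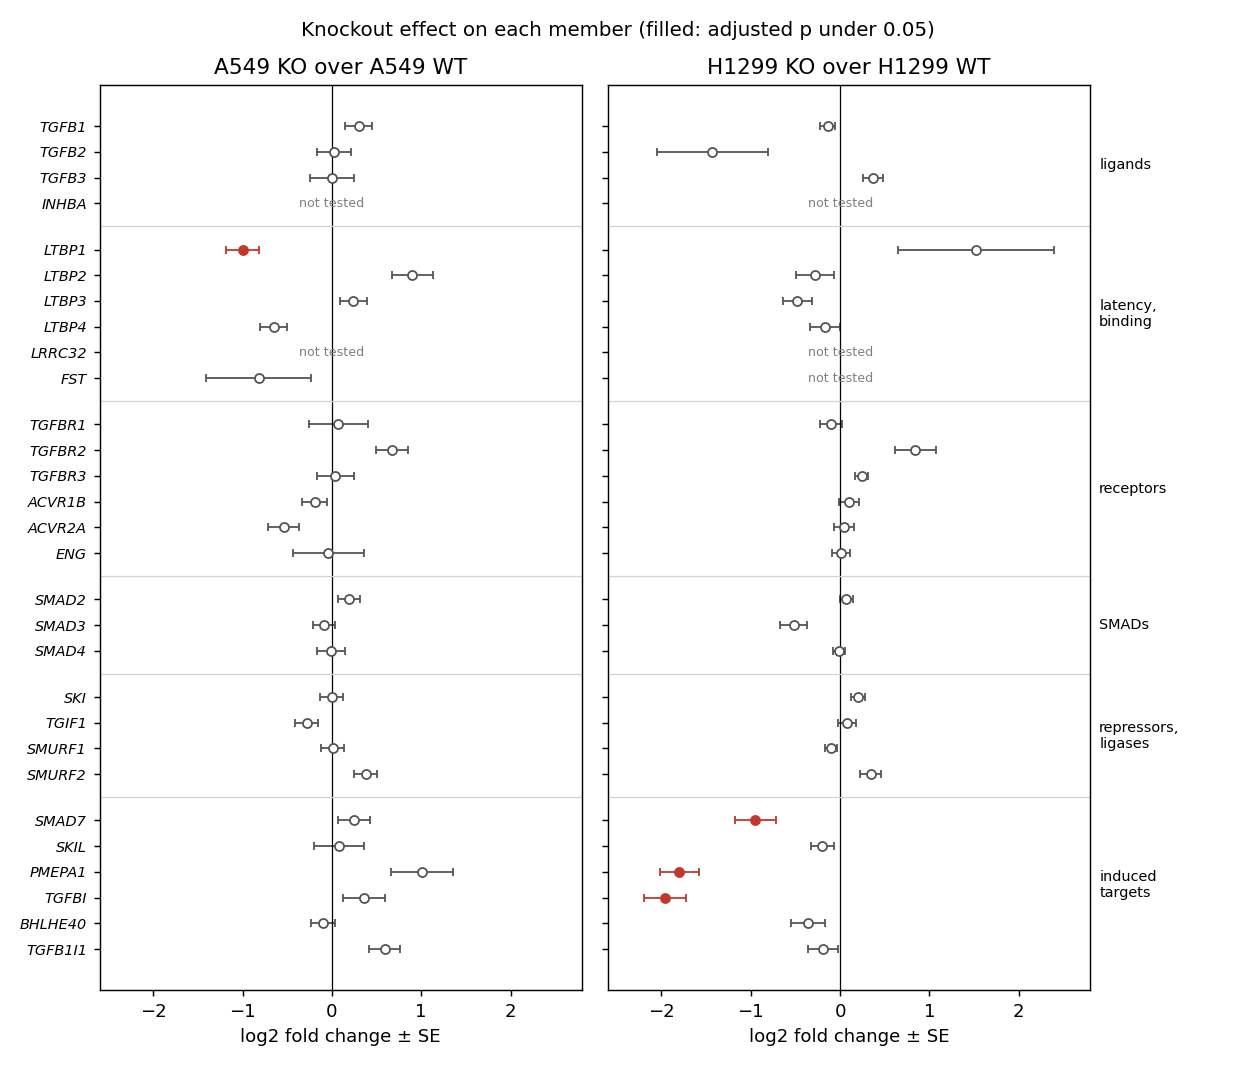
Log2 fold change of KO over WT (horizontal axis, with SE) for the members that passed the low-count filter, 27 in A549 (left) and 26 in H1299 (right), grouped by layer from ligands at the top to induced targets at the bottom, with filled points where the adjusted p was under 0.05. In H1299 the filled points are TGFBI, PMEPA1 and SMAD7 at -1.96, -1.80 and -0.95, and in A549 LTBP1 at -1.0.

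In A549 none of the induced targets passed the test, and 5 of the 6 had values above 0. The only member called was LTBP1, the latent TGF-beta binding protein that anchors the ligand in the matrix, which was 50.1% of its wild-type level. Of the 20093 genes tested 2.14% were called, 0.99% higher and 1.15% lower, beside 1 of 27 members tested, INHBA and LRRC32 having too few counts. LTBP1 (chr2:32946972-33399509, plus strand) was at 35.5, 53.2 and 32.4 CPM in the A549 KO libraries, against 81.5, 82.2 and 78.0 CPM in the A549 WT libraries. The groups did not overlap, and LTBP1 fell by 1.0 in log2 terms (SE 0.19, adjusted p = 0.0455). Summed epithelial markers were at 4623 to 5168 CPM in A549 KO and 2528 to 4670 CPM in A549 WT, and their part in the A549 values was not tested.

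LTBP1 lies on chromosome 2, as does the targeted gene PSME4, and chromosome 2 as a whole was lower in A549 KO. The median log2 fold change of its 1277 tested genes was -0.46, with 87.0% of them below 0, and that of the 160 tested genes within 10 Mb of LTBP1 was -0.54. With each library centred within chromosomes the log2 fold change of LTBP1 was -0.56 and was no longer called (adjusted p = 0.177). ACVR2A, the activin type II receptor, is on the same chromosome and was at 6.02 ± 0.565 CPM in A549 KO and 8.74 ± 1.00 CPM in A549 WT, with a log2 value of -0.54 (adjusted p = 0.144). Centred within chromosomes, ACVR2A was at -0.09 (adjusted p = 0.8295). The fit of all 12 libraries called it (-0.52, adjusted p = 0.0367). In H1299 the chromosome's median was 0.04. With the A549 libraries thinned to 1 depth LTBP1 kept its call (-0.98, adjusted p = 0.0397), whereas it lost it without the first or the second A549 WT library, and without the first or the third A549 KO library (adjusted p from 0.0790 to 0.148). In the fit of all 12 libraries it was not called either (adjusted p = 0.371).

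PMEPA1 was at 288, 265.2 and 339 CPM in A549 KO, against 78.9, 123.9 and 239.7 CPM in A549 WT. Every knockout library lay above every wild-type one, but the wild-type libraries differed among themselves by more than the smallest gap between groups. The log2 value of 1.01 (SE 0.35) missed the threshold (adjusted p = 0.169), and it was 1.56 (adjusted p = 0.0176) without the third A549 WT library. TGFB1I1 showed the same order of groups, at 25.6, 23.2 and 29.3 CPM in A549 KO, against 19.8, 14.1 and 18.0 CPM in A549 WT (0.59, SE 0.17, adjusted p = 0.110).

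TGFBI was at 1183, 868 and 1454 CPM in A549 KO, against 774, 795.3 and 1169 CPM in A549 WT. The ranges overlapped (0.36, SE 0.23, adjusted p = 0.436). SMAD7 was at 29, 21.5 and 29.3 CPM in A549 KO, against 18.4, 23.5 and 25.2 CPM in A549 WT, also overlapping (0.25, SE 0.18, adjusted p = 0.489). SKIL and BHLHE40 differed by 0.08 and -0.10. Over the 6 targets the median was 0.30, beside -0.01 over all genes tested. EdgeR called 0 of these 6, 2 had an unadjusted p under 0.05, and DESeq2 called those 2, PMEPA1 and TGFB1I1, as higher. Of all genes in A549, 19.1% had an unadjusted p under 0.05 and DESeq2 called 7.11%.

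Above the targets in A549, TGFB1 had the smallest adjusted p of the ligands, at 138.7, 159.3 and 155.9 CPM in A549 KO, against 110.7, 108.5 and 148.7 CPM in A549 WT (0.30, SE 0.15, adjusted p = 0.323). Its ranges overlapped, since the third wild-type library was high. TGFB2 and TGFB3 stood within 0.02 of no difference on the log2 scale. INHBA had 2 counts over the A549 KO libraries and 5 over the A549 WT libraries, and LRRC32 had 19 over A549 KO and 21 over A549 WT.

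TGFBR2 had the smallest adjusted p of the receptors here too. It was at 248.5, 214 and 295 CPM in A549 KO, against 140.8, 197.7 and 136.3 CPM in A549 WT. As in H1299 every knockout library lay above every wild-type one, and as there the difference missed the threshold (0.67, SE 0.18, adjusted p = 0.10), although DESeq2 called it in A549. TGFBR1, TGFBR3 and ENG differed by 0.07, 0.04 and -0.04, and ACVR1B by -0.19.

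Among the other latency proteins LTBP2 was at 40.9 ± 6.26 CPM in A549 KO and 21.9 ± 7.48 CPM in A549 WT (0.90, SE 0.23, adjusted p = 0.0897), while LTBP4 was at 22.6 ± 1.97 CPM in A549 KO and 35.6 ± 5.03 CPM in A549 WT (-0.65, SE 0.15, adjusted p = 0.0598). Neither pair of ranges overlapped, and they pointed in opposite directions. Without the third A549 WT library both passed, LTBP2 at 1.22 (adjusted p = 0.0169) and LTBP4 at -0.74 (adjusted p = 0.0330). With no library left out, DESeq2 called both (adjusted p = 0.00777 for LTBP2 and 0.00559 for LTBP4). Both also passed with no low-count filter (0.0114 and 0.0346) and in the fit of all 12 libraries (0.0457 and 0.0390). FST was at 14.6, 13.1 and 7.88 CPM in A549 KO, against 28.8, 4.36 and 29.7 CPM in A549 WT, with overlapping ranges.

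SMAD2 had the smallest adjusted p of the signalling SMADs in A549, at 178.3, 170.4 and 156.5 CPM in A549 KO, against 135.3, 145.5 and 161.0 CPM in A549 WT (0.19, SE 0.12, adjusted p = 0.427), with overlapping ranges. SMAD3 and SMAD4 differed by -0.09 and -0.01. SMURF2 was at 70.4, 63.1 and 69.5 CPM in A549 KO, against 44.5, 57.6 and 53.6 CPM in A549 WT (0.38, SE 0.13, adjusted p = 0.165), with the knockout libraries above. TGIF1, which represses SMAD-driven transcription, averaged 102 ± 14.1 CPM in A549 KO and 124 ± 1.46 CPM in A549 WT, with the knockout below and adjusted p = 0.289. SKI and SMURF1 were within 0.01 of no difference on the log2 scale. Of the 21 tested members above the targets in A549, edgeR called 1, 6 had an unadjusted p under 0.05, and DESeq2 called 4. DESeq2 called LTBP1 and LTBP4 as lower and LTBP2 and TGFBR2 as higher. The same rules took 2.14%, 19.1% and 7.11% of all genes. In all, the ranges of 9 of the 27 members tested in A549 did not overlap, 5 above and 4 below, beside 25.3% of all genes, 12.4% above and 12.9% below.

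**Figure D3:**
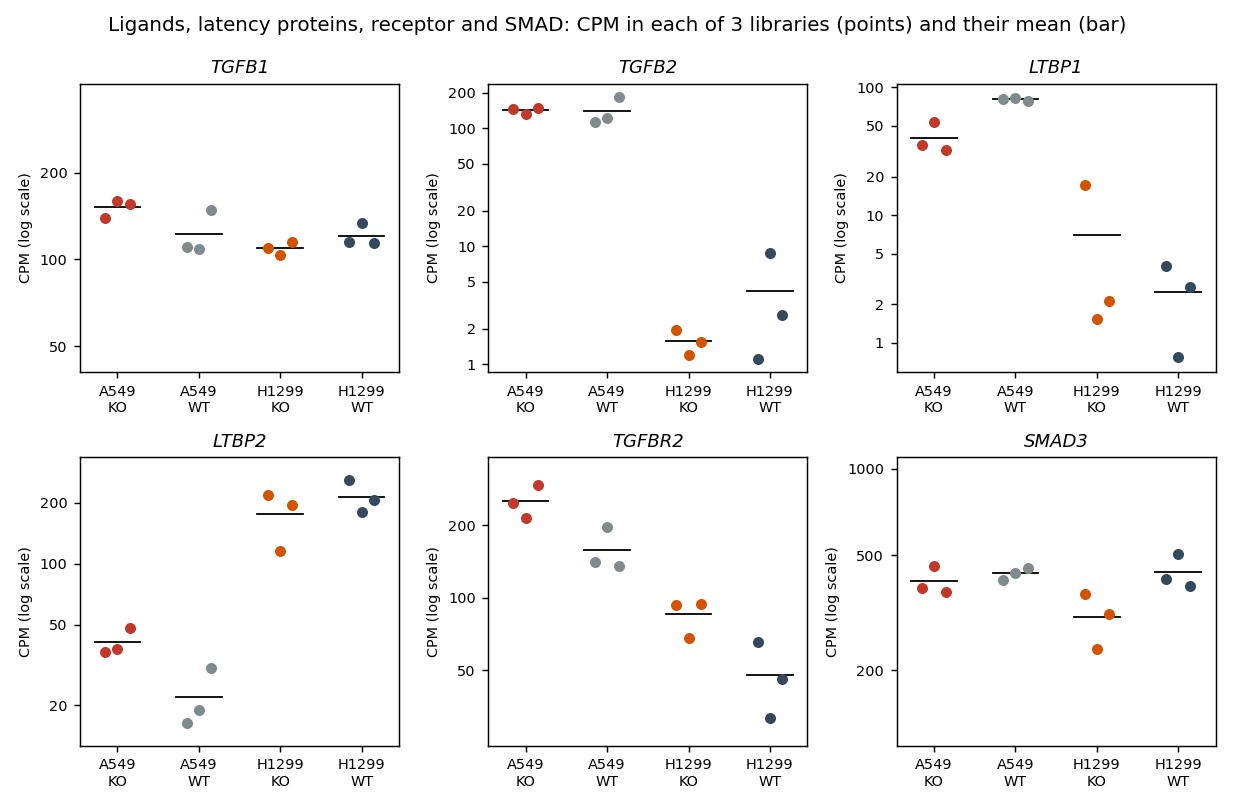
CPM (vertical axis, log scale) of the ligands TGFB1 and TGFB2, the latency proteins LTBP1 and LTBP2, the receptor TGFBR2 and SMAD3 in each of the 3 libraries of the 4 groups (points), with the group mean as a bar. TGFBR2 is higher in KO than in WT in every library of both lines, and LTBP1 lies at 32.4 to 53.2 CPM in A549 KO against 78.0 to 82.2 CPM in A549 WT.

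The knockout effect differed between the lines for the same 3 targets and for no other member, tested as the effect in H1299 minus the effect in A549 in 1 fit over all 12 libraries. The difference was -2.34 on the log2 scale for TGFBI (SE 0.37, adjusted p = 0.00715), -2.83 for PMEPA1 (SE 0.47, adjusted p = 0.00838) and -1.22 for SMAD7 (SE 0.29, adjusted p = 0.0393). Beside these 3 of 27 members, 3.48% of 22635 genes differed, 1.97% as higher and 1.52% as lower. PMEPA1 and TGFBI passed under all 16 alternatives. SMAD7 passed under 6 of them and was lost without any 1 library other than the third A549 WT and the second A549 KO library, at adjusted p from 0.0512 to 0.106. Without the third A549 WT library LTBP2 and TGFB1 (-0.62, adjusted p = 0.0293) passed too.

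The median difference over the 6 targets was -1.01, with all 6 values below 0. Over the 21 tested members above the targets it was 0.03. EdgeR called 0 of these 21, 5 had an unadjusted p under 0.05, and DESeq2 called 2, LTBP2 and LTBP3. Of all genes, 18.3% had an unadjusted p under 0.05 for this difference and DESeq2 called 8.16%. LTBP2 had a difference of -1.20 (SE 0.35, adjusted p = 0.0845), which passed with no low-count filter (-1.19, adjusted p = 0.00586). LTBP1 had a difference of 2.50 (SE 0.97, adjusted p = 0.182), which passed with no low-count filter (2.52, adjusted p = 0.0120) but was 0.58 (adjusted p = 0.709) without the first H1299 KO library. TGFBR2 had a difference of 0.15 (SE 0.33, adjusted p = 0.888) and SMURF2 of -0.06 (SE 0.19, adjusted p = 0.937), and neither p shows that the lines acted alike.

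Set against each other layer by layer, the targets had the lowest score of any layer in all 3 H1299 KO libraries, though in the second the latency proteins, at -0.67, were close to them. Each library was scored per layer as the median over its genes of log2(CPM + 0.5) minus the wild-type mean of the gene. The targets scored -0.38, -0.69 and -0.49 in the H1299 KO libraries, against -0.12, 0.24 and -0.15 in the H1299 WT libraries. The co-repressors and ligases had the only other non-overlapping scores in H1299, at 0.22, 0.10 and 0.11 in H1299 KO, against 0.04, -0.03 and 0.05 in H1299 WT, with the knockout above. Ligands ranged from -0.22 to -0.07 in H1299 KO and from -0.13 to 0.15 in H1299 WT, which overlap.

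In A549 the targets scored 0.42, -0.04 and 0.55 in the KO libraries, against -0.24, -0.09 and 0.28 in the WT libraries, and overlapped. The latency proteins were the only layer of A549 whose scores did not overlap, at -0.10, -0.26 and -0.61 in A549 KO, against 0.02, 0.02 and -0.05 in A549 WT. Of the 5 latency and binding genes tested there, LTBP1, FST and LTBP4 had values below 0 and LTBP2 and LTBP3 above 0. LTBP1 lies on chromosome 2, which was lower as a whole in A549 KO. Each score rests on 3 to 6 genes, and no share of non-overlapping scores was taken over other gene sets.

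**Figure D4:**
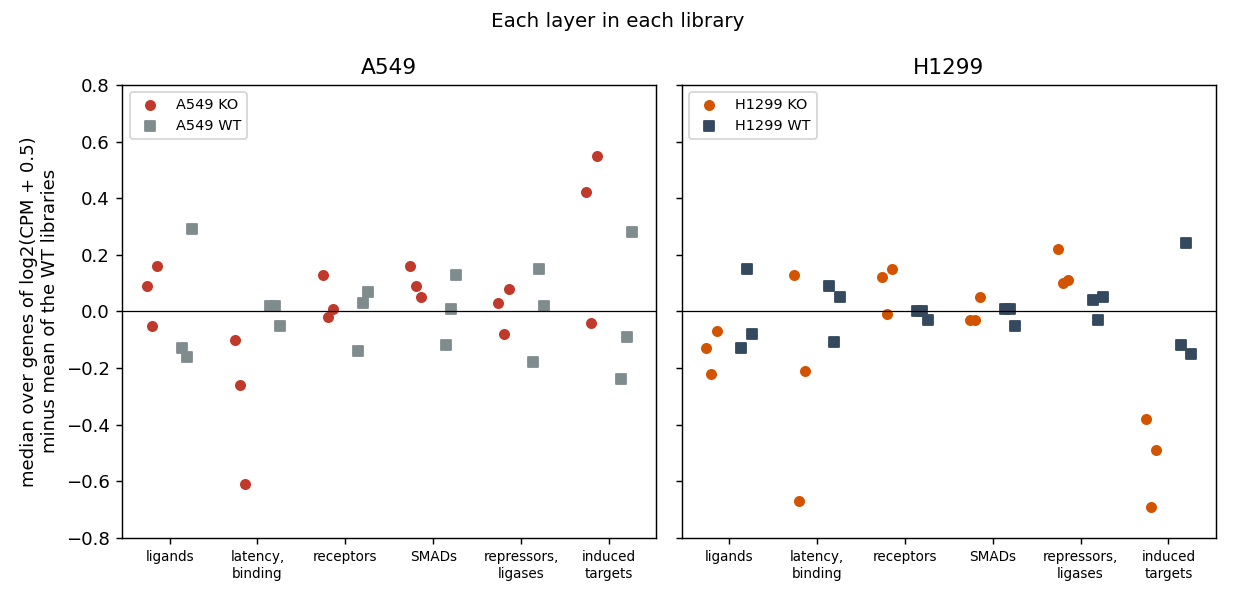
Layer score (vertical axis, median over a layer's genes of log2(CPM + 0.5) minus the mean of the WT libraries) for each library of A549 (left) and H1299 (right), with KO as circles and WT as squares. The induced targets of H1299 KO lie between -0.69 and -0.38 and all H1299 WT libraries at or above -0.15.

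Within each knockout group 1 library stood low across the targets. The second H1299 KO library was the lowest of its group for all 6 targets, and for 20 of the 26 members tested, beside 37.7% of all genes. The second A549 KO library was likewise lowest for all 6 targets, and for 16 of 27 members, beside 37.2% of all genes. Among wild-type libraries the second of H1299 was highest for 5 of the 6 targets and the third of A549 for 4. Without the second H1299 KO library TGFBI and PMEPA1 remained called in H1299.

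Of 23 further target genes of TGF-beta tested in H1299, 3 rose and 3 fell, beside 4.66% higher and 4.18% lower among all genes, with a median of -0.12. The list holds genes that TGF-beta induces and some that it represses, so its count and median describe no single direction of response. FN1, the matrix protein fibronectin, fell most, at 13.4, 10.9 and 10.9 CPM in H1299 KO, against 40.0, 41.4 and 32.8 CPM in H1299 WT (-1.70, SE 0.13, adjusted p = 0.000319), though not in the fit of all 12 libraries (adjusted p = 0.134). ID1 and ID3, inhibitors of DNA binding that BMP signals switch on and TGF-beta can repress, fell by 1.07 and 0.99. The matricellular genes CCN2 and CCN1 rose by 0.42 and 0.41, and MYC, which TGF-beta represses in epithelial cells, by 0.53. In the fit of all 12 libraries neither CCN1 (adjusted p = 0.0728) nor CCN2 (0.347) was called. CCN2 kept its call without the second H1299 KO library and lost it without any 1 of the other 5 (adjusted p from 0.0568 to 0.156). CCN1 lost its call without the third H1299 KO library (0.0599), and ID1 without that library (0.0616) or the third H1299 WT library (0.0509).

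In A549 2 of 27 such targets fell and none rose, beside 2.14% of all genes called, with a median of 0.05. ANGPTL4, a secreted inhibitor of lipoprotein lipase, was at 1.94, 3.61 and 1.78 CPM in A549 KO, against 23.5, 13.3 and 14.9 CPM in A549 WT (-2.82, SE 0.34, adjusted p = 0.0127). SPHK1, a sphingosine kinase, averaged 1.75 ± 0.133 CPM in A549 KO and 4.72 ± 1.24 CPM in A549 WT (-1.43, SE 0.25, adjusted p = 0.0392). FN1 was at 534.5, 691 and 1433 CPM in A549 KO, against 1899, 2780 and 372 CPM in A549 WT, with overlapping ranges (-0.93, SE 0.64, adjusted p = 0.475). ANGPTL4 lost its call without the second A549 WT library (adjusted p = 0.0572). SPHK1 lost it without any 1 library but the third A549 WT one (adjusted p from 0.0682 to 0.146) and with the libraries thinned to 1 depth (0.0656).

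Genes that release or hold latent TGF-beta, kept in 1 list, were called in both lines. Thrombospondin 1, THBS1, which frees the ligand from its propeptide, was at 7.40, 0.769 and 2.06 CPM in H1299 KO, against 20.2, 157.8 and 14.9 CPM in H1299 WT. All knockout libraries were lower, and the second wild-type library stood far above its group. In log2 terms THBS1 fell by 4.21 (SE 1.0, adjusted p = 0.0337), with a value of -2.34 (adjusted p = 0.0475) without that library. The call was lost without the second (0.105) or the third (0.126) H1299 KO library.

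In A549 THBS1 rose, at 146, 116.3 and 165 CPM in A549 KO, against 49.7, 64.3 and 87.0 CPM in A549 WT (1.09, SE 0.22, adjusted p = 0.0489). The difference between lines was -5.32 (SE 1.14, adjusted p = 0.0247). It was -3.44 without the second H1299 WT library, and it was not called without the second A549 WT, the third A549 KO, the second H1299 KO or the third H1299 KO library (adjusted p from 0.0529 to 0.0757). The A549 call held without the third A549 WT library and was lost without any 1 of the other 5, at adjusted p from 0.0727 to 0.166, with all 12 libraries in 1 fit, at 0.396, and when centred within chromosomes, at 0.0512.

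Of the 10 genes of this latent-ligand list tested in H1299, ITGB3, the convertase gene FURIN, the membrane protease gene MMP14 and THBS1 fell and ITGB8 rose, with a median of -0.30, beside 8.84% of all genes called. ITGB3 was at 1.3 ± 0.240 CPM in H1299 KO and 4.14 ± 0.258 CPM in H1299 WT (-1.66, SE 0.18, adjusted p = 0.00209). MMP14 was at 131.0 ± 17 CPM in H1299 KO and 210.5 ± 3.64 CPM in H1299 WT (-0.68), and FURIN at 12.1 ± 1.67 CPM in H1299 KO and 17.7 ± 0.978 CPM in H1299 WT (-0.55). In the fit of all 12 libraries neither MMP14 (adjusted p = 0.0716) nor FURIN (0.120) was called, and FURIN also lost its call without the second or the third library of either group (0.0593 to 0.0831). ITGB8, the integrin subunit that binds latent TGF-beta, was at 0.691 ± 0.298 CPM in H1299 KO and 0.0748 ± 0.0688 CPM in H1299 WT (3.04, SE 0.61, adjusted p = 0.0186), and was not called without the first (0.0511) or the third (0.0656) H1299 KO library. It had 60 counts over the H1299 KO libraries and 7 over the H1299 WT libraries and passed the low-count filter through the knockout libraries alone, so its place among the called genes supports nothing about the list. In A549, of 11 tested, THBS1 and the fibrillin gene FBN1 rose, beside 2.14% of all genes called. FBN1 was at 32.1 ± 3.17 CPM in A549 KO and 17.1 ± 0.689 CPM in A549 WT (0.91, SE 0.13, adjusted p = 0.0218). It lost its call when centred within chromosomes (0.0610) and without the second A549 WT library or any 1 A549 KO library (0.0511 to 0.113).

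In the remaining lists edgeR called genes in H1299 only, beside 8.84% of all genes called there and 2.14% in A549. Of other superfamily ligands and their binding proteins, edgeR called 0 of 6 tested in A549 and 0 of 3 in H1299. At an unadjusted p under 0.05 there were 4 in A549 and 0 in H1299, and DESeq2 called 1 in A549 and 0 in H1299. The same rules took 19.1% and 7.11% of all genes in A549, and 25.1% and 11.6% in H1299. Of other receptors 0 of 5 were called in A549 (1 at an unadjusted p under 0.05, 1 by DESeq2). In H1299 1 of 6 rose, the BMP receptor BMPR1B, at 12.4 ± 1.16 CPM in H1299 KO and 2.78 ± 2.13 CPM in H1299 WT (2.20, SE 0.56, adjusted p = 0.0411). BMPR1B was not called by DESeq2 (0.113), when centred within chromosomes (0.0696), or without the third H1299 WT library or any 1 H1299 KO library (0.0688 to 0.104). Of 21 other SMADs and regulators, 0 were called in A549 (2 at an unadjusted p under 0.05, 0 by DESeq2). In H1299 only ZFYVE9, which presents SMAD2 and SMAD3 to the receptor, was called, at 51.5 ± 3.35 CPM in H1299 KO and 36.6 ± 2.22 CPM in H1299 WT (0.49, SE 0.08, adjusted p = 0.0106). It was not called without the third H1299 KO library (0.0574) or in the fit of all 12 libraries (0.0664).

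Between the wild-type lines, all 6 induced targets were lower in H1299 WT than in A549 WT, with a median log2 difference of -2.17, beside -0.02 over all genes tested. Line, count table and any sequencing batch coincide and cannot be told apart, and 65.6% of 22635 genes were called, 31.8% higher and 33.7% lower, beside 23 of the 27 members tested. Of these 23, 8 were higher in H1299 WT and 15 lower. The ranges of 8 members lay above and of 14 below, beside 36.7% and 31.2% of all genes. These ranges use CPM scaled within each line's table, whereas the fit scaled all 12 libraries together, so the 2 measures are slightly offset. The targets ran from BHLHE40 (-3.93, SE 0.19) and SMAD7 (-3.32, SE 0.21) through TGFBI (-2.71), TGFB1I1 (-1.64) and PMEPA1 (-1.49) to SKIL (-1.26, SE 0.24).

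TGFB1 did not pass the test, at 120.9 ± 10.9 CPM in H1299 WT and 122.6 ± 22.6 CPM in A549 WT (-0.11, SE 0.13, adjusted p = 0.472). TGFB2 was lower in H1299 WT, at 4.17 ± 4.07 CPM beside 139.8 ± 38.0 CPM in A549 WT (-5.11, SE 0.51), and TGFB3 higher, at 9.5 ± 0.778 CPM beside 1.05 ± 0.0469 CPM in A549 WT (3.09, SE 0.17). LTBP1 was lower in H1299 WT (-5.12 on the log2 scale) and LTBP2 higher (3.20). FST, which passed the filter on low counts through A549 alone, had 1 count in H1299 WT and 1105 in A549 WT, a ratio of scaled counts of 0.000597 with a 95% counting interval from 1.51e-05 to 0.00333.

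Of the receptors, ENG was higher in H1299 WT by 4.86 and TGFBR3 by 1.72, while TGFBR2 (-1.81, SE 0.24) and TGFBR1 (-1.12) were lower. SMAD3, SMAD4 and ACVR2A did not pass, at -0.07, -0.05 and -0.08, and SMAD2 was lower (-0.59). The co-repressor TGIF1 was lower in H1299 WT (-2.39), and SKI, SMURF1 and SMURF2 were higher by 0.92, 1.20 and 1.01.

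Per kilobase of transcript, a scale on which different genes can be compared, TGFBI was the highest member in A549 WT at 326 ± 79.3 CPM per kb. BHLHE40 followed at 76.8 ± 4.11, SMAD3 at 69.3 ± 3.33 and TGIF1 at 67.9 ± 0.795, and these ranges of SMAD3 and TGIF1 overlapped. In H1299 WT SMAD3 stood first at 70.2 ± 9.56 CPM per kb, then TGFBI at 52.7 ± 9.90, TGFB1 at 43.7 ± 3.95 and SMURF2 at 38.1 ± 5.29, and the ranges of TGFBI, TGFB1 and SMURF2 overlapped. With the knockout TGFBI was ninth in order in H1299, at 13.5 ± 4.63 CPM per kb, and SMAD3 was first at 49.0 ± 10.6, with SMURF2 next at 48.3 ± 6.57 and overlapping it. SMAD7 was among the lowest in H1299, at 0.275 ± 0.0277 CPM per kb in H1299 KO and 0.529 ± 0.144 in H1299 WT. SMAD2 was left out of this order because its annotated transcripts differ widely in length.

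**Figure D5:**
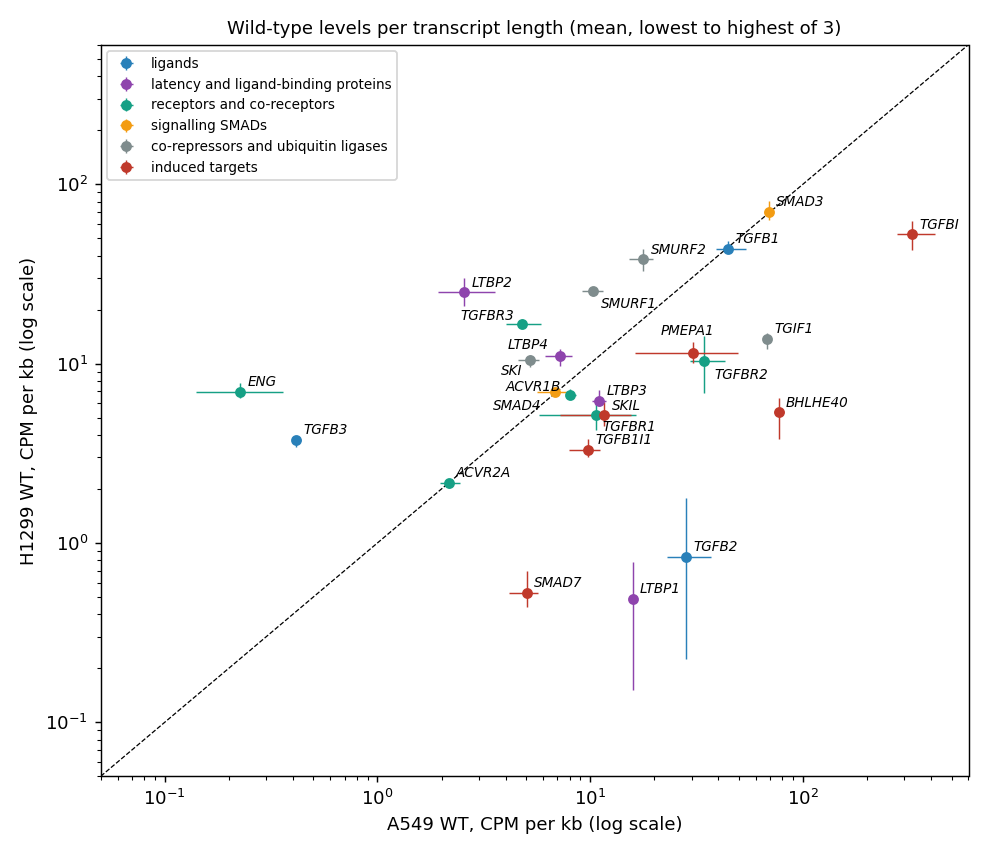
Mean level per transcript length in H1299 WT (vertical axis) against A549 WT (horizontal axis), both in CPM per kb on log scales, for 25 members coloured by layer, with bars from the lowest to the highest of 3 libraries and a dashed line of equal level. All 6 induced targets, such as TGFBI at 52.7 in H1299 WT and 326 in A549 WT, lie below the line, while TGFB1 and SMAD3 lie close to it. CPM were scaled within each line, so the line of equal level is approximate.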

How the data were processed

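The authors deposited raw gene counts, 1 table for each line with 6 libraries and 59050 symbols. Per the labels' protocols, a stranded kit that selects poly-A RNA was used on 1 µg of RNA. The submitters' processing notes list bcl2fastq 2.20.0.422 and GRCm38.p6, which is a mouse assembly, while the symbols are human. For the aligner, the counter and how strand was treated, nothing is given in the sources used here. Antisense or overlapping genes may therefore share reads.

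The members and gene lists were chosen with earlier results of these data known. In R 4.3.3, genes passing filterByExpr (minimum count 10) were TMM-scaled and tested with edgeR 4.0.16 (glmQLFit, glmQLFTest), with Benjamini-Hochberg adjustment over all genes of a fit. Each SE was derived as the absolute log2 fold change divided by the square root of the test's F statistic. Library numbers within a group only name the libraries. Each line was fitted alone, and the line difference and the wild types in 1 fit of 12 libraries. An exact permutation test of 3 libraries against 3 can reach no p below 0.1 (10 splits), so p-values rest on the model. Per-library values are given for members called in a knockout fit or in the difference, and for the member with the smallest adjusted p of each layer without a call. Those of TGFB2 in H1299 and of FST in A549 and all values of single uncalled members beyond that rule were chosen after they were seen. From each further list every called gene is named.

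Coordinates and transcript lengths (principal protein-coding transcripts) are from GENCODE 29 (GRCh38), in which 56159 symbols (95.1%) were found once. Floors are 3 counts over a group and the interval is an exact binomial one at 95%; both cover counting error only. Alternatives were RLE size factors, DESeq2 1.42.0, no filter, 1 CPM in 3 libraries, 1 fit of 12 libraries, centring within chromosomes, leaving out each library and, added after the data were seen, thinning of A549 to 16599401 counts. The tests were tried on simulated data with known changes, 1 draw per comparison. In each draw 67 genes were changed 1.5-fold, 67 were changed 2-fold and 66 were changed 4-fold. Only genes above a minimum mean count per library were changed, a cut that SMAD7, TGFB2 and LTBP1 passed in H1299. The shares found again pool genes of all counts above it, so they describe no single low-count member. For the wild types all other genes were set equal between the lines, whereas 65.6% were called in the data. The shares below therefore do not describe that comparison. In the other draws all unchanged genes had equal means in KO and WT, so no whole chromosome was shifted. In the A549 data chromosome 2 had a median log2 fold change of -0.46, with 87.0% of its genes below 0. The shares for A549 and for the difference take no account of such a shift. In A549, over 19780 genes, 3.0% of genes changed 1.5-fold, 46.3% of those changed 2-fold and 97.0% of those changed 4-fold were found again, with 10.2% false among the calls. In H1299, over 19924 genes, these shares were 53.7%, 91.0%, 98.5% and 5.8%. For the difference, over 22342 genes, they were 1.5%, 31.3%, 81.8% and 3.8%, and for the wild types, over 21998 genes, 11.9%, 56.7%, 98.5% and 13.3%.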

Additional observations from a re-analysis of the deposited data

Results flagged for a closer look

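The knockout effect differed between the lines by the interaction test for 3 members and 6 genes of the further lists, given as the log2 effect in H1299 minus that in A549. These were 3 of 27 members tested, 4 of 29 further target genes, 1 of 11 genes of the latent-ligand list and 1 of 6 other receptors. There were 0 of 7 other superfamily ligands and binding proteins and 0 of 22 other SMADs and regulators. Of all 22635 genes tested 3.48% differed. Among the members, PMEPA1 differed by -2.83, TGFBI by -2.34 and SMAD7 by -1.22. THBS1, which releases latent TGF-beta, differed by -5.32, with its effect below 0 in H1299 and above 0 in A549. ANGPTL4, which fell in A549, differed by 3.0 (SE 0.46, adjusted p = 0.00603), and SPHK1, which also fell there, by 1.65 (SE 0.30, adjusted p = 0.0120). MYC differed by 0.94 (SE 0.16, adjusted p = 0.00906), having risen in H1299, with an A549 value of -0.43 that did not pass. SNAI1, a repressor of E-cadherin, differed by 1.63 (SE 0.33, adjusted p = 0.0194), with libraries at 2.23, 2.52 and 1.87 CPM in H1299 KO, against 1.42, 1.69 and 1.53 CPM in H1299 WT, and at 0.874, 1.29 and 0.936 CPM in A549 KO, against 2.62, 1.77 and 2.47 CPM in A549 WT. ACVR1, a type I receptor for BMPs and activins, differed by 0.97 (SE 0.16, adjusted p = 0.00906). It was at 37.9 ± 2.65 CPM in H1299 KO and 30 ± 2.42 CPM in H1299 WT, and at 20.8 ± 2.59 CPM in A549 KO and 32.5 ± 2.22 CPM in A549 WT (SD, n = 3 each). SNAI1's difference was not called without the third A549 KO library (0.0527) or the second H1299 KO library (0.0551). Neither line's own fit called SNAI1 or ACVR1. ACVR1 lies on chromosome 2, whose median log2 fold change was -0.46 in A549 KO over WT. Its own A549 value of -0.65 became -0.20 (adjusted p = 0.512) with each library centred within chromosomes, and its H1299 value 0.30 (adjusted p = 0.0725). The line difference itself was not tested in centred libraries.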

How the results depend on the processing

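No member called in a comparison changed direction under any alternative run. In H1299, where 3 members were called, no filter gave 9 (3 higher, 6 lower), DESeq2 gave 5 and leaving out 1 library 2 to 6, the 6 without the first wild-type library. TGFBI (-2.22 to -1.73) and PMEPA1 (-2.08 to -1.58) passed under all 12 alternatives and SMAD7 under 7. In A549, where 1 was called, no filter gave 5 (3 higher, 2 lower), DESeq2 6 (4 higher, 2 lower), the fit of 12 libraries 4 (2 higher, 2 lower), centring within chromosomes 0 and leaving out 1 library 0 to 4, the 4 without the third wild-type library. LTBP1 passed under 7 of 13. For the line difference, with 3 called, no filter gave 5, DESeq2 6 and leaving out 1 library 2 to 5, the 5 without the third A549 wild-type library. For wild type the count of 23 stayed between 22 and 24. Among all genes, the A549 count of 430 (2.14%) was 1275 (3.6%) with no filter and 1540 (7.11%) with DESeq2. It was 1772 (7.83%) in the fit of 12 libraries, 227 (1.13%) centred and 10 to 1016 (0.0474% to 4.81%) with 1 library left out. The H1299 count of 1786 (8.84%) was 3077 (8.85%) with no filter and 2315 (11.6%) with DESeq2. It was 559 (2.47%) in the fit of 12 libraries and 471 to 1469 (2.28% to 7.13%) with 1 library left out. The difference count of 788 (3.48%) was 1239 (3.16%) with no filter, 1707 (8.16%) with DESeq2 and 310 to 1359 (1.33% to 5.83%) with 1 library left out. Leave-out fits hold fewer libraries; the cause of the other shifts was not tested. Low counts limit SMAD7, TGFB2 and LTBP1 in H1299, and the last 2 also depend heavily on 1 library each. TGFB2 was -0.20 without the second H1299 WT library, and LTBP1 was -0.41 without the first H1299 KO library. No paired analysis was possible because the labels give the groups no shared replicate numbers.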
